A study of Mus musculus with 6 samples.

Results

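The genes described here write, copy and remove methyl groups on DNA cytosines: Dnmt1, Uhrf1, Dnmt3a, Dnmt3b, Tet1, Tet2, Tet3 and Tdg. They were taken by gene symbol from a table of transcripts, and each symbol's transcripts were added together. All 8 were found, with 62 annotated transcripts, among 41254 symbols and 100144 transcripts. RNA came from DN3a thymocytes of adult C57BL/6 mice, immature T cell precursors at the step where the T cell receptor beta locus is rearranged. The 3 libraries of one group were wild type, and the 3 of the other carried a transgene, Tg_Cd2_GATA3. Its product GATA3, a DNA-binding factor, directs T cell development, and the series' title ties its amount to allelic exclusion at that locus. The Cd2 in its name is all the labels give on what drives the transgene, and the table does not separate its RNA from that of the endogenous Gata3. No label ties a library to an animal of its own, so each p below rests on the spread between these libraries, part of which may be technical. Where 3 values of a group are given, they stand in the order of its replicates.

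In mammals a methyl group sits mostly on the cytosine of CpG pairs, on both strands. Replication leaves the new strand bare. UHRF1 binds such half-methylated sites and brings in DNMT1, which copies the mark, while DNMT3A and DNMT3B place methyl groups on bare DNA. The TET enzymes oxidise the methyl group, and TDG cuts out the late oxidation products so that base excision repair can put back a plain cytosine. Methylation of receptor loci and of lineage genes such as Cd4 and Cd8a changes as thymocytes develop.

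The libraries held 39022281 to 46985605 fragments. Levels in CPM are fragments scaled to library size. Gata3 ranged from 38.2 to 49.1 CPM among wild-type libraries and from 53.6 to 61.6 CPM among transgenic ones, without overlap, and missed the threshold set for all genes (edgeR, adjusted p = 0.17). The DN3 markers Il2ra, Ptcra, Rag1, Rag2, Cd3e, Notch3, Bcl11b and Dntt were all present, their sum ranging from 6778 to 8268 CPM among wild-type and from 7651 to 8341 CPM among transgenic libraries. Dntt and Rag1 made up most of that sum. Of these 8 markers, Notch3 and Bcl11b lay higher in transgenic libraries without overlap, as did 8.73% of all tested genes. Il2ra lay lower in this way, as did 10.1%. The groups overlapped for the rest, and edgeR called 0 of the 8. The B cell genes Pax5 and Ms4a1 and the NK cell genes Ncr1 and Klrd1 stood between 0 and 0.03 CPM in every library, while Cd79b of the B cell list stood at 42.5 to 55.7 CPM and Nkg7 of the NK cell list at 31.2 to 46.9 CPM, both overlapping between the groups. Y-linked genes took 18522 fragments of wild-type replicate 1 and 16840 of transgenic replicate 3, against 16 to 26 in the other libraries, so each group held 1 library with Y-linked RNA. Xist went the other way, with 48599 to 54218 fragments in the other libraries and 29 and 89 in the 2 libraries with Y-linked RNA. The part that these differences between libraries have in the results below was not tested, except where values without those libraries are given.

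Several of these genes start at more than 1 place, and the deposited table splits their fragments among the starts. The windows around the starts of Dnmt1 and Uhrf1 are shown because the transcripts that begin there make up most of the signal of the 2 most abundant genes. Each window runs 5′ to 3′ on the gene's strand, from 250 bases before to 50 bases after a RefSeq start (GRCm38.p6, the mm10 coordinates). Capitals mark exact matches on either strand to the E2F-type words TTTCCCGC, TTTGGCGC, TTTCGCGC and TTTGCCGC. Words of 1 kind can overlap those of another, and a match is a description, not a binding site.

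Dnmt1, start of Dnmt1-202, chr9:20959839-20960138, minus strand: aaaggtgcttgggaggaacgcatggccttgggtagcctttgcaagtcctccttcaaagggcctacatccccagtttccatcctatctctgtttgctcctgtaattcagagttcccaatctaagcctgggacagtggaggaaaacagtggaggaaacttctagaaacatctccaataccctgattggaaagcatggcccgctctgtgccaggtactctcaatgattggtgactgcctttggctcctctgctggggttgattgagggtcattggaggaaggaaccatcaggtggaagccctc

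Dnmt1, start of Dnmt1-201, chr9:20952930-20953229, minus strand: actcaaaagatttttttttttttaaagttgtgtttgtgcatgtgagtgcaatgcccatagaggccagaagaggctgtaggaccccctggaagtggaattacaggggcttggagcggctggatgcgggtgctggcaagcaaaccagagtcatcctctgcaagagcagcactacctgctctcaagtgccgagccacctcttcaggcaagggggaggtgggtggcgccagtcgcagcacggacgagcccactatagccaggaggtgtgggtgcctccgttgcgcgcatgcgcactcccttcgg

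Dnmt1, start of Dnmt1-203, chr9:20952574-20952873, minus strand: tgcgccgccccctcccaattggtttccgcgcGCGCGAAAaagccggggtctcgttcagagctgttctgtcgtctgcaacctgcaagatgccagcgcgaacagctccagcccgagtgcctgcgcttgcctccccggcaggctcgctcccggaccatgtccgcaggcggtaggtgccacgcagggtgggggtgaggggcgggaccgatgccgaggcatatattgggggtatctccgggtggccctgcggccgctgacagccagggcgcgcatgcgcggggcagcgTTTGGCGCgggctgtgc

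Uhrf1, upstream start, chr17:56303087-56303386, plus strand: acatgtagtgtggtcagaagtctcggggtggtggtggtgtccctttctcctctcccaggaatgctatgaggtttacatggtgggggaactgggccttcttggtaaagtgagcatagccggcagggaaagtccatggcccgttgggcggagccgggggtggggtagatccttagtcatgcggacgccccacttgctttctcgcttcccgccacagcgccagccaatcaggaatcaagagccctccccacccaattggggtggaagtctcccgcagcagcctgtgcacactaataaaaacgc

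Uhrf1, downstream start, chr17:56304063-56304362, plus strand: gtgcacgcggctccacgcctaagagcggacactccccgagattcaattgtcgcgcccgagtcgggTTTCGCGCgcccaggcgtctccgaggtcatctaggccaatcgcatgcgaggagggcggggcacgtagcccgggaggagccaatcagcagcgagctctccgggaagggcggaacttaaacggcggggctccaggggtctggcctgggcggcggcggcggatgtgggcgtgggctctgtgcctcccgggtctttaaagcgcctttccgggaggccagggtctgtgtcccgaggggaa

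The E2F-type words matched the window of Dnmt1-203, with 2 matches, and the downstream window of Uhrf1, with 1 match. Among all 32851 RefSeq windows of this length, 2.26% held such a match. The same 2 windows were the richest in CpG of the 5, with 33 CpG pairs each, against 12 at Dnmt1-201 and at the upstream Uhrf1 start and 2 at Dnmt1-202, and a median of 7 over all windows. The Dnmt1-203 window lies just downstream of the Dnmt1-201 start at 20952979. It holds the first coding exon of Dnmt1-201, from 20952708 to 20952787, so its words and CpG pairs also lie close to that start. The other 8 windows matched to these genes, which belong to Dnmt3a, Dnmt3b, Tet1, Tet2, Tet3 and Tdg, held no E2F-type word. The words AGATAA or AGATAG or TGATAA or TGATAG, of the kind that GATA factors bind, matched on either strand 1 of the 13 windows, that of Dnmt1-202, against 29.8% of all windows. For both kinds of word, the windows miss some measured starts. The only Tet1 window lies around 62887324, while the full-length transcripts Tet1-206 and Tet1-201 begin at 62899118 and 62880014. The only Tet3 window, around 83441678, does not cover the start of the longer Tet3 transcript at 83456392.

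Levels between genes were compared as FPKM, fragments scaled by transcript length and library size, summed over the transcripts of a gene. In wild type the order ran from Uhrf1 at 288 ± 10.1 FPKM (SD, n = 3) and Dnmt1 at 127 ± 11.9 FPKM (SD, n = 3), through Tdg at 41.1 ± 2.79 FPKM (SD, n = 3), to the de novo enzymes. Dnmt3a stood at 24.5 ± 1.07 FPKM and Dnmt3b at 22.8 ± 0.79 FPKM (SD, n = 3 each), and their ranges met at 23.7 FPKM. Uhrf1 ranked 270th and Dnmt1 645th among the 14653 tested genes, so the maintenance pair belonged to the most abundant RNAs of these cells per length.

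The TET genes were the lowest, with Tet3 at 11.5 ± 1.62, Tet1 at 8.15 ± 0.59 and Tet2 at 4.60 ± 0.35 FPKM (SD, n = 3 each). The place of Tet1 above Tet2 rested on short transcripts. In full-length coding transcripts alone, Tet1 stood at 4.57 ± 0.25 FPKM (SD, n = 3) in wild type, which differed from Tet2 by less than the spread between libraries. The transgenic libraries gave the same order of the 8 genes, from Uhrf1 at 294 ± 18.2 FPKM to Tet2 at 5.19 ± 0.19 FPKM (SD, n = 3 each).

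**Figure D1:**
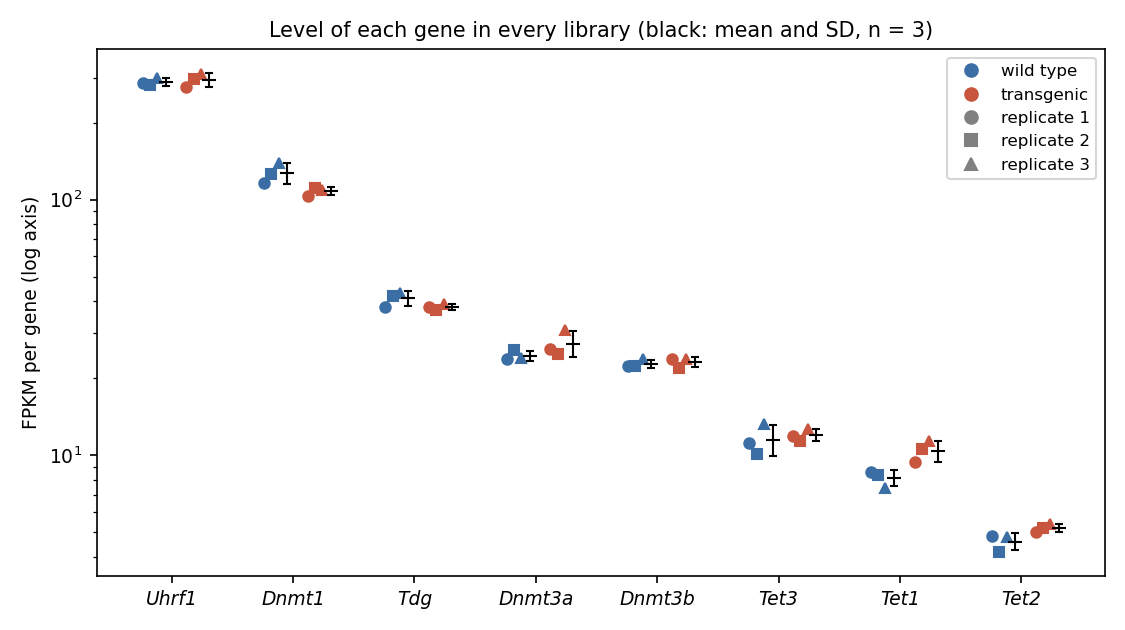
FPKM per gene on a log axis (y) for the 8 genes (x), in each wild-type (blue) and transgenic (red) library, with the mean and SD of 3 libraries in black. Uhrf1 lies near 290 FPKM and Tet2 near 5 FPKM in both groups, and the groups stand close together beside the distance between genes.

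Between the groups, none of the 8 genes was called at an adjusted p under 0.05 by edgeR, with the Benjamini-Hochberg method, where 0.0136% of all 14653 tested genes were called higher and 0% lower. Dnmt1 was the only one of the 8 with an unadjusted p under 0.05, in the lower direction as 7.7% of all tested genes, while 5.71% had one in the higher direction. The median log2 fold change of the 8 genes was 0.01, beside 0.00 over all tested genes. Without overlap between the groups, Dnmt1 lay lower and Tet1 and Tet2 higher in transgenic libraries, where 10.1% of all tested genes lay lower in this way and 8.73% higher.

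**Figure D2:**
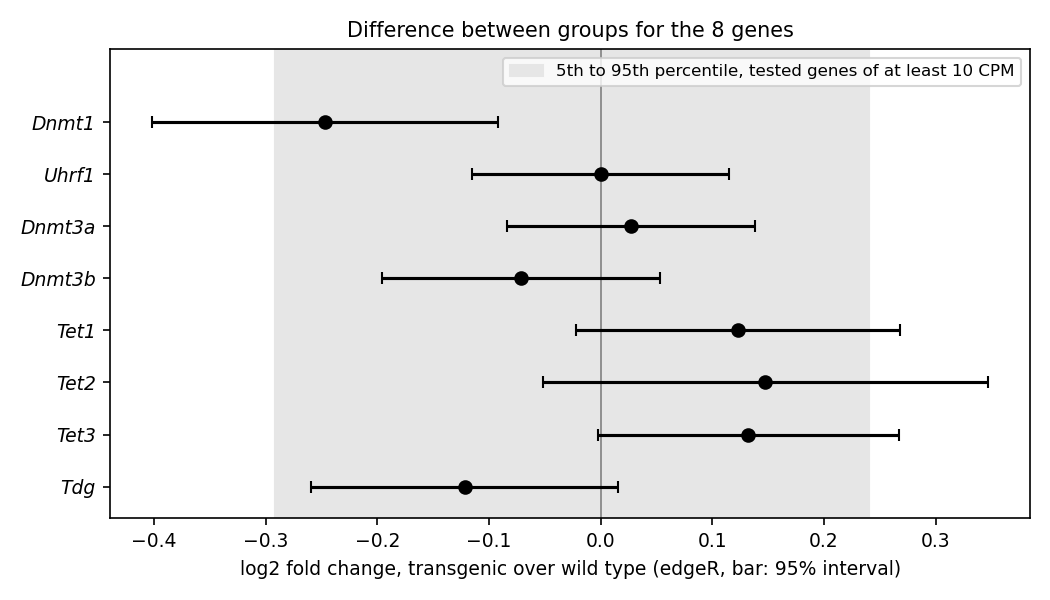
Log2 fold change of transgenic over wild-type libraries (x) for the 8 genes (y), with 95% intervals from edgeR, on the band that holds the 5th to 95th percentile of the 9034 tested genes with a mean of at least 10 CPM. The intervals of 7 genes include 0, and that of Dnmt1 runs from -0.40 to -0.09.

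Dnmt1 (ENSMUSG00000004099, chromosome 9, 20907209 to 20959888, minus strand), the maintenance methyltransferase, was measured at 880, 992 and 1023 CPM in wild type. The transgenic libraries held 793, 865 and 781 CPM. All transgenic values lay below all wild-type values, with transgenic replicate 2 and wild-type replicate 1 the nearest to each other. The wild-type mean was 965 ± 75.3 CPM and the transgenic mean 813 ± 45.5 CPM (SD, n = 3 each), 0.843 times the wild-type level with a 95% interval of 0.757 to 0.938. The log2 fold change of -0.25 ± 0.07 (SE) did not pass over all genes (edgeR, adjusted p = 0.192).

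The call of Dnmt1 turned on the test and on 1 library. DESeq2 called it lower (log2 fold change -0.24, adjusted p = 0.0132), as it did 3.36% of the genes it adjusted, with 1.72% called higher. So did edgeR without wild-type replicate 1 (-0.31, adjusted p = 0.0228, 2.32% of genes called lower and 0.992% higher), with a covariate for Y-linked RNA (-0.24, adjusted p = 0.0353, 1.4% lower and 0.348% higher) and without both libraries with Y-linked RNA (-0.28, adjusted p = 0.0410, 1.32% lower and 0.432% higher). The adjusted p spanned 0.0132 to 0.549 over 16 alternatives, each with Dnmt1 lower in transgenic cells. The pair of libraries with Y-linked RNA showed the same direction, with 880 CPM in wild type and 781 CPM in transgenic cells.

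Uhrf1 (ENSMUSG00000001228, chromosome 17, 56303321 to 56323486, plus strand), the partner that brings DNMT1 to half-methylated sites, stood at 1109, 1118 and 1133 CPM in wild type. The transgenic libraries held 1061, 1137 and 1162 CPM, a range that encloses the wild-type one. The means were 1119.8 ± 12.1 and 1119.9 ± 52.7 CPM (SD, n = 3 each), and the 95% interval of the ratio ran from 0.923 to 1.08 (edgeR, adjusted p = 0.999). Uhrf1 fragments per Dnmt1 fragment numbered 1.26, 1.13 and 1.11 in wild type and 1.34, 1.31 and 1.49 in transgenic cells, without overlap. This ratio was looked at after the values of both genes were known, and no test was made of it.

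Other genes that act with the maintenance pair at replicating DNA lay lower with Dnmt1. Of 6 tested maintenance partners, 4 were lower without overlap between the groups, as were 10.1% of all tested genes, 0 were called, and the median log2 fold change was -0.27, beside 0.00 over all tested genes. Hells, a chromatin remodeller needed for normal methylation, stood at 168, 184 and 181 CPM in wild type and at 124, 142 and 140 CPM in transgenic cells. Its log2 fold change was -0.39 ± 0.07 (SE; edgeR, adjusted p = 0.135). For its partner Cdca7 the log2 difference was -0.19 ± 0.05 (SE).

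The other 2 partners that lay lower are parts of the replication fork. Pcna, the sliding clamp that also binds DNMT1, differed by -0.34 ± 0.07 (SE) on the log2 scale, and Lig1, the ligase of Okazaki fragments that recruits UHRF1, by -0.42 ± 0.11 (SE; edgeR, adjusted p = 0.159 and 0.189). Uhrf2, the relative of Uhrf1, and Usp7, a deubiquitinase that binds DNMT1 and UHRF1, had log2 fold changes of 0.04 ± 0.05 and 0.00 ± 0.05 (SE). Dppa3, an inhibitor of UHRF1 in germ cells, was at 0 in every library, which allows up to 0.0638 to 0.0769 CPM by counting error. Hells was called lower in 7 of 16 alternatives, DESeq2 among them, and Pcna in 5.

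Genes of cell division lay lower in the same libraries, without a call by edgeR. Of 22 tested S phase genes, none of which is among the 8, every one lay below 0, the median log2 fold change being -0.29. Of 20 tested genes of G2 and mitosis, every one did, with -0.48 as the median, and edgeR called 0. edgeR called 0 of the S phase genes, with 21 at an unadjusted p under 0.05 against 7.7% of all tested genes in the lower direction, and DESeq2 called 15 lower against 3.36%. Rrm2 and Cdc45, the S phase genes with the smallest p, had log2 fold changes of -0.53 ± 0.09 and -0.49 ± 0.08 (SE). Ccnb2 and Bub1b, the 2 of mitosis chosen likewise, stood at -0.50 ± 0.09 and -0.47 ± 0.09 (SE) on that scale. Wild-type replicate 1 lay nearest the transgenic libraries for the S phase list, at 0.01 beside 0.21 and 0.22 in the other wild-type libraries and -0.19 to -0.08 in the transgenic ones, on a log2 scale around the mean of the 6. On that scale Dnmt1 stood at -0.01, 0.17 and 0.21 in wild type and at -0.16, -0.03 and -0.18 in transgenic cells. Uhrf1 stayed between -0.08 and 0.05. Of the coreceptor genes that later thymocytes express, Cd4 differed by -0.89 ± 0.22, Cd8a by -1.34 ± 0.42 and Cd8b1 by -1.15 ± 0.26 (SE) on the log2 scale, each lower without overlap and uncalled. The part of cell division and of later thymocytes in the Dnmt1 values was not tested, and in such bulk RNA fewer cells of a state and less RNA per cell cannot be told apart.

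**Figure D3:**
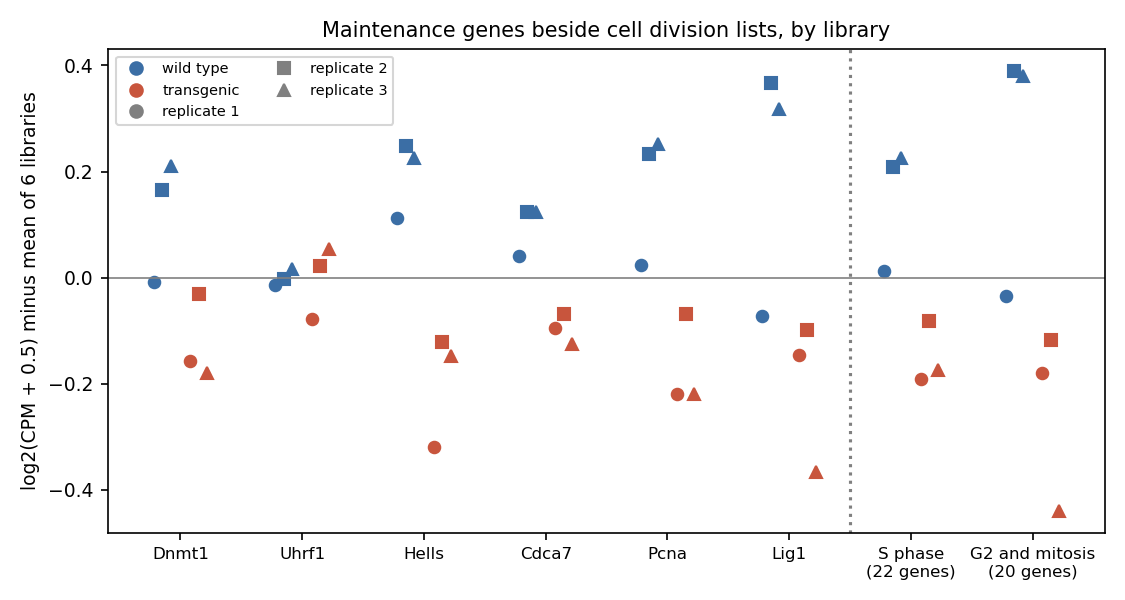
Log2(CPM + 0.5) minus its mean over the 6 libraries (y) for Dnmt1, Uhrf1 and 4 maintenance partners, and the mean of the same over 22 S phase genes and 20 genes of G2 and mitosis (x), in wild-type (blue) and transgenic (red) libraries. Dnmt1 and the 4 partners lie lower in every transgenic library than in any wild-type library, while Uhrf1 overlaps between the groups. The 4 partners were picked because they lay lower without overlap, as did 10.1% of all tested genes. The other tested partners, Uhrf2 and Usp7, overlapped between the groups and are not shown.

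The estimated shares of the Uhrf1 starts did not overlap between the groups, and no test was made of them. Uhrf1-201 and Uhrf1-203 begin upstream, at 56303321 and 56303400, and Uhrf1-204 and Uhrf1-202 begin downstream, at 56304348 and 56304313. The upstream transcripts took 48.4, 55.5 and 60.7% of the gene's FPKM in wild type and 42.3, 45.6 and 42.9% in transgenic cells. The downstream transcripts took 43.1, 37.6 and 33.2% in wild type and 49.1, 43.7 and 50.8% in transgenic cells. All transgenic shares lay below the wild-type ones upstream and above them downstream, with the nearest values 48.4 and 45.6% upstream and 43.1 and 43.7% downstream. Uhrf1-201 and Uhrf1-204 code for proteins of the same length, 782 codons.

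The difference lay in Uhrf1-201 and Uhrf1-204, while the share of Uhrf1-203 overlapped, at 11.3 ± 1.19 and 11.8 ± 1.99% (SD, n = 3 each). As levels, Uhrf1-201 lay lower and Uhrf1-204 higher in every transgenic than in any wild-type library. Uhrf1-201 stood at 126 ± 18.2 and 93.5 ± 13.2 FPKM and Uhrf1-204 at 104 ± 13.4 and 133 ± 12.9 FPKM (SD, n = 3 each, wild type first). Of the 37 transcripts of the 8 genes with a mean of at least 0.5 FPKM in a group, 5 lay higher and 5 lower without overlap, against 7.31 and 5.65% of all such transcripts in the table. In the authors' deposited table, 0 of the 62 transcripts were marked significant, with q of at least 0.998. The transcripts of a gene share most exons, so their split is an estimate with its own error, which the table does not give per library.

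The shares of the Dnmt1 starts, which are estimates of the same kind, overlapped between the groups. Dnmt1-201, with 1620 codons, took 67.9 ± 2.91% of the gene's FPKM in wild type and 67.4 ± 4.03% in transgenic libraries (SD, n = 3 each). Dnmt1-202, which begins 5′ of the others at 20959888 and has 1501 codons, took 29.7 ± 3.17 and 30.4 ± 3.99% (SD, n = 3 each), and Dnmt1-203 took 2.40 ± 0.33 and 2.23 ± 0.06% (SD, n = 3 each). As a level, Dnmt1-201 stood at 86.4 ± 9.78 FPKM in wild type and 72.7 ± 2.86 FPKM in transgenic libraries (SD, n = 3 each), without overlap, while the groups overlapped for Dnmt1-202. Relative to Dnmt1-201, the shorter Dnmt1-202 lacks the first 3 coding exons.

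**Figure D4:**
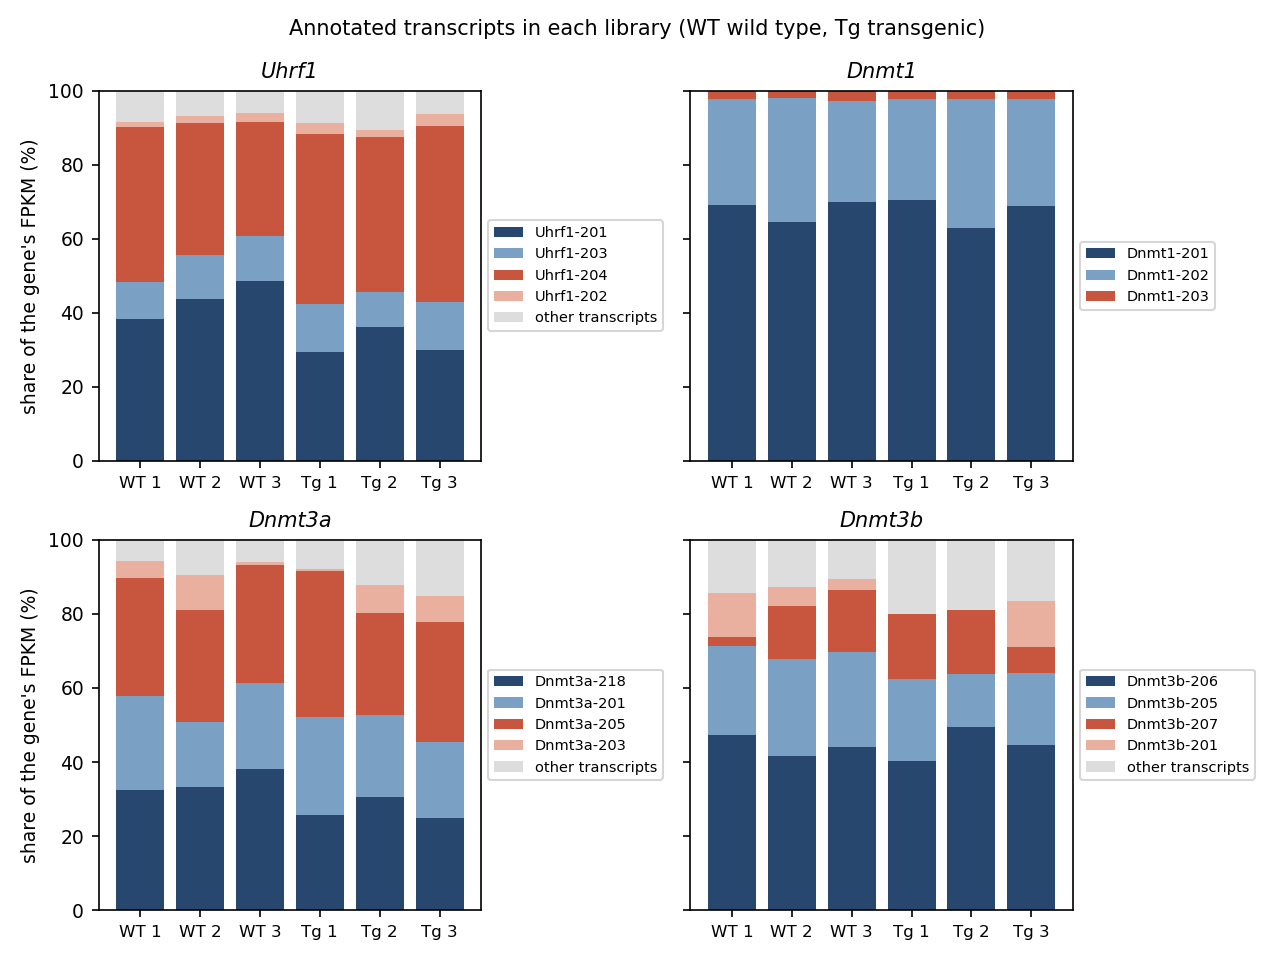
Share of each gene's FPKM (y, in percent) that the deposited table gives to its annotated transcripts, for Uhrf1, Dnmt1, Dnmt3a and Dnmt3b, in each wild-type (WT) and transgenic (Tg) library (x). The upstream Uhrf1 transcripts, in blue, take 48.4 to 60.7% in wild type and 42.3 to 45.6% in transgenic libraries, while the Dnmt1 shares overlap.

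Among the de novo enzymes, Dnmt3a (ENSMUSG00000020661, chromosome 12, 3806007 to 3914443, plus strand) overlapped between the groups. It stood at 176, 175 and 173 CPM in wild type and at 178, 172 and 184 CPM in transgenic cells. The 95% interval of its ratio ran from 0.943 to 1.10 (edgeR, adjusted p = 0.872). A long form and a shorter one from an internal promoter are known, which the table holds as 4 full-length coding transcripts. The long form of 908 codons, begun at 3807030 and 3807160, stood at 13.8 ± 0.85 FPKM in wild type and 13.6 ± 0.44 FPKM in transgenic libraries (SD, n = 3 each). The form of 689 codons, begun at 3891728 and 3891744, stood at 8.88 ± 1.22 and 10.5 ± 1.72 FPKM (SD, n = 3 each), and the groups overlapped. The deposited split gave fragments to both forms in every library. The forms share most exons, so this is an estimate, and reads unique to the internal start were not examined. Within the long form, Dnmt3a-218 lay lower without overlap, at 7.73 to 9.12 FPKM in wild type and 6.73 to 7.67 FPKM in transgenic libraries.

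Dnmt3b (ENSMUSG00000027478, chromosome 2, 153649450 to 153687730, plus strand) stood at 96.4, 97.8 and 100.1 CPM in wild type. The transgenic libraries held 96.8, 88.7 and 94.6 CPM, with replicate 1 inside the wild-type range. Its ratio had a 95% interval of 0.873 to 1.04 (edgeR, adjusted p = 0.638). Most of its signal lay in transcripts of 776 codons, Dnmt3b-206 and Dnmt3b-205, which took 69.5 ± 1.76% of FPKM in wild type and 63.4 ± 1.0% in transgenic libraries (SD, n = 3 each), without overlap. As shares of the gene's fragments, in which short transcripts weigh less, the groups overlapped, at 76.5 to 80.8% and 74.5 to 77.6%. Full-length transcripts of 859 or 860 codons took 17.9 ± 3.07% in wild type and 17.1 to 19.4% in transgenic libraries. The 776-codon transcripts lack coding exons 11, 22 and 23 of the 24 exons of Dnmt3b-201. DNMT3B forms that skip exons near the 3′ end are known to lack part of the catalytic domain.

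Dnmt3l, the cofactor of de novo methylation in germ cells, lay between 0 and 0.26 CPM. Setd2 and Nsd1, which place the histone mark that DNMT3 enzymes read, had log2 fold changes of 0.07 ± 0.06 and 0.06 ± 0.06 (SE). Trdmt1, a relative of the DNMT genes that methylates transfer RNA, had one of -0.36 ± 0.21 (SE). None of these 3 tested genes was called, and the groups overlapped for all 3.

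The 3 TET genes, the dioxygenases that oxidise methylcytosine, all lay on the higher side in transgenic libraries without a call. Tet1 (ENSMUSG00000047146, chromosome 10, 62804570 to 62908996, minus strand) stood at 72.7, 73.2 and 70.5 CPM in wild type. The transgenic libraries held 76.0, 76.1 and 83.5 CPM, all above wild type. The log2 fold change of 0.12 ± 0.06 (SE) corresponds to a ratio with a 95% interval of 0.985 to 1.20 (edgeR, adjusted p = 0.455). In limma on log2(FPKM + 0.1) the log2 fold change was 0.35 (adjusted p = 0.385).

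Tet2 (ENSMUSG00000040943, chromosome 3, 133463679 to 133545139, minus strand), which has 1 transcript in the table, stood at 54.2, 44.5 and 52.8 CPM in wild type. The transgenic libraries held 55.5, 54.7 and 57.5 CPM. The transgenic values lay above the wild-type ones, by little for wild-type replicate 1 and by more for replicate 2. The log2 fold change was 0.15 ± 0.09 (SE; edgeR, adjusted p = 0.526), and it was 0.07 without wild-type replicate 2.

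Tet3 (ENSMUSG00000034832, chromosome 6, 83362373 to 83459084, minus strand) stood at 121, 106 and 115 CPM in wild type and at 129, 120 and 126 CPM in transgenic cells. Wild-type replicate 1 lay above transgenic replicate 2, so the groups overlapped. The log2 fold change was 0.13 ± 0.06 (SE; edgeR, adjusted p = 0.384). Its 1668-codon transcript took 63.5 ± 5.93% of FPKM in wild type and 67.0 ± 3.99% in transgenic libraries (SD, n = 3 each), and its 1803-codon transcript, begun further 5′, 31.5 ± 2.79 and 32.4 ± 4.06% (SD, n = 3 each). The longer TET3 form is known to carry a CXXC domain that binds CpG. An antisense transcript, B230319C09Rik, overlaps Tet3 over 6568 bases at a mean of 3.8 CPM, and without strand its fragments cannot be told from those of Tet3.

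The full-length Tet1 signal was split between Tet1-206 and Tet1-201, with 2039 and 2007 codons. Tet1-206 lay higher without overlap, as did 7.31% of all transcripts with a mean of at least 0.5 FPKM in a group. The nearest values were 3.69 FPKM in wild type and 3.70 FPKM in transgenic libraries. Tet1-206 stood at 3.38 ± 0.27 FPKM in wild type and 4.40 ± 0.76 FPKM in transgenic libraries, and Tet1-201 at 1.18 ± 0.46 and 0.51 ± 0.49 FPKM (SD, n = 3 each). In transgenic replicate 3, Tet1-201 was given 0.001 FPKM and Tet1-206 its highest value, 5.21 FPKM. The part of the split in these values was not tested. The short noncoding Tet1-202 stood at 2.66 ± 0.31 and 3.46 ± 0.91 FPKM (SD, n = 3 each) and held 7.03 and 8.22% of the gene's fragments. The sum of both full-length transcripts was 4.57 ± 0.25 and 4.90 ± 0.27 FPKM (SD, n = 3 each), and for this sum the groups overlapped.

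Stress and immediate early genes, which respond to cell handling, lay higher in transgenic libraries too. Of 12 tested, every one lay above 0, the median log2 fold change being 0.42, and edgeR called 0 of them, with 9 at an unadjusted p under 0.05, against 5.71% of all tested genes in the higher direction. Jund and Hspa1b, the 2 with the smallest p, had log2 fold changes of 0.48 ± 0.08 and 1.75 ± 0.39 (SE). The highest library of that list, transgenic replicate 3, was also the highest for Tet1 and Tet2, but Tet3 was highest in transgenic replicate 1. The lowest, wild-type replicate 3, was the lowest for Tet1, whereas Tet2 and Tet3 were lowest in wild-type replicate 2. The part of this list in the TET values was not tested.

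Of the genes that act with TET enzymes, Ogt, a glycosyltransferase that binds TET proteins, stood at 552, 510 and 509 CPM in wild type and at 585, 607 and 635 CPM in transgenic cells. Its log2 fold change was 0.22 ± 0.06 (SE; edgeR, adjusted p = 0.186), and 3 alternatives called it higher: DESeq2, the Y-linked covariate and the fit without wild-type replicate 1. Cxxc5, which binds Tet2 and CpG, stood at 55.6 to 62.7 CPM over all libraries, and its relative Cxxc4 was at 0 in all 6. The other 3 tested genes of this list overlapped between the groups, among them Vprbp, a ubiquitin ligase subunit, at -0.09 ± 0.06 (SE) on the log2 scale.

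Tdg (ENSMUSG00000034674, chromosome 10, 82629828 to 82650799, plus strand), the glycosylase that removes oxidised methylcytosine, stood at 92.9, 102 and 106 CPM in wild type. The transgenic libraries held 92.4, 93.0 and 91.6 CPM. Wild-type replicate 1 lay within the transgenic range and the other wild-type libraries above it. The log2 fold change was -0.12 ± 0.06 (SE), a ratio with a 95% interval of 0.836 to 1.01 (edgeR, adjusted p = 0.435). Fragments of Tdg are uncertain, since the pseudogene Gm9855, at a mean of 1.38 CPM, is 99.2% identical to it over 1194 bases, and since Glt8d2, on the opposite strand at 15.3 CPM, overlaps it by 367 bases. Another such copy, Gm5597, was at 0 in every library. The longest, Tdg-ps, 98.7% identical over 2968 bases, and AC122846.1, 99.0% identical over 203 bases, were not analysed here for their levels. For Uhrf1 the copy Gm5648 is 98.3% identical over 1590 bases and stood at 0.082 CPM.

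Downstream of TDG, repair genes went in both directions without a call. Of 12 tested genes of base excision and demethylation, 7 lay above 0 and 5 below, the median log2 value being 0.13. Ung, the uracil glycosylase of replication, stood at 62.8, 72.3 and 67.2 CPM in wild type and at 53.7, 56.4 and 52.5 CPM in transgenic cells, which on the log2 scale is -0.32 ± 0.08 (SE; edgeR, adjusted p = 0.166). Xrcc1, a scaffold of single-strand break repair, differed by -0.19 ± 0.07 (SE) on that scale. Parp1, a sensor of such breaks, had -0.17 ± 0.06 (SE), and Gadd45a and Gadd45b, stress genes tied to demethylation, had 0.54 ± 0.21 and 0.38 ± 0.25 (SE), all without overlap. Smug1 and Mbd4, glycosylases that with TDG can act on modified or mismatched bases, had 0.21 ± 0.12 and 0.11 ± 0.08 (SE).

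RNA of genes whose proteins read methylated CpG showed little difference. All 7 tested readers of methylated CpG overlapped between the groups, with a median log2 fold change of 0.02, and Mbd3 and Zbtb4, the 2 with the smallest p, had values of -0.10 ± 0.08 and 0.17 ± 0.16 (SE). Of 4 readers of unmethylated CpG, which carry CXXC domains, 2 were higher without overlap, as were 8.73% of all tested genes. Kdm2a, a demethylase of histone H3, stood at 210, 203 and 203 CPM in wild type and at 236, 238 and 239 CPM in transgenic cells. Its log2 fold change was 0.21 ± 0.05 (SE), and that of Kmt2a, a histone H3 methyltransferase, was 0.29 ± 0.08 (SE; edgeR, adjusted p = 0.159 and 0.192). DESeq2 called both higher (adjusted p = 0.00616 and 0.00863), as it did 1.72% of the genes it adjusted.

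For the supply of methyl groups, 3 of 6 tested genes lay above 0 and 3 below. Ahcy, which clears the inhibitory by-product of methylation, stood at 196 ± 12.9 CPM in wild type and 162 ± 13.7 CPM in transgenic libraries (SD, n = 3 each), a log2 fold change of -0.28 ± 0.07 (SE; edgeR, adjusted p = 0.183). Mat2b, a subunit of the enzyme that makes the methyl donor, had one of -0.08 ± 0.06 (SE). Over all lists of partners, readers and donors, 43 genes were tested and 0 were called, with 5 higher and 8 lower without overlap, against 8.73 and 10.1% of all tested genes. DESeq2 called 3 of them higher and 6 lower, against 1.72 and 3.36% of the genes it adjusted.

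**Figure D5:**
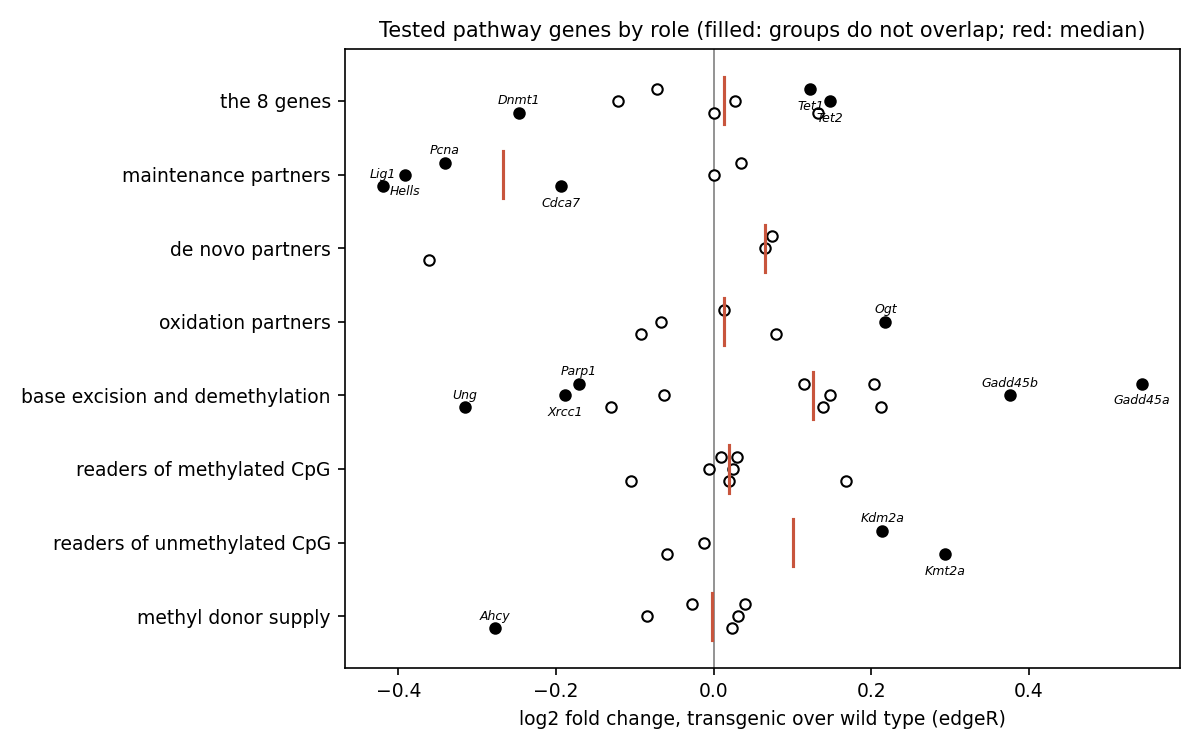
Log2 fold change of transgenic over wild-type libraries (x, edgeR) for each tested gene, by role (y), with the list's median in red. Filled points are genes whose groups do not overlap, among them 4 of 6 maintenance partners on the lower side and none of the 7 readers of methylated CpG.

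The genes whose levels followed each of the 8 most closely over the 6 libraries were sought among 9033 tested genes with a mean of at least 10 CPM. The 6 libraries share the difference between groups, so high values are common and serve as a description. For Dnmt1 they were Rtkn2, Ruvbl2, an ATPase of chromatin complexes, and Racgap1, a regulator of cytokinesis, with a Pearson coefficient of 0.998, 0.997 and 0.996, and 305 genes reached 0.95. For Uhrf1 they were 1810032O08Rik, Glt8d1 and Tmem132a, at 0.996, 0.995 and 0.987, and 18 genes reached 0.95. Dnmt3a was nearest to Zfp3, Mfsd8 and Lrrc8a (0.998, 0.989 and 0.979) and Dnmt3b to Marcks, Rad9a and Aida (0.998, 0.996 and 0.973).

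Tet1 was nearest to Unc13a, the histone demethylase gene Kdm7a and the AP-1 gene Jun (0.997, 0.994 and 0.990), Tet2 to Dapp1, BC005561 and 4930404N11Rik (0.991, 0.988 and 0.987), and Tet3 to Npc1, Slc35d1 and Lpp (0.994, 0.994 and 0.989). Tdg was nearest to Bard1, the partner of BRCA1 in DNA repair, Fkbp2 and Serpinb1a (0.996, 0.994 and 0.994).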

How the data were processed

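Total RNA was depleted of ribosomal RNA before library preparation, per the labels' protocols. The submitters' processing notes name TopHat2, Cuffdiff and mm10; no version, annotation or strand setting is given in the sources used here. Per transcript and library, the deposited table gives FPKM and an estimated count of fragments, per the file headers. The authors also deposited a log2 fold change, p-value and q-value per transcript. Scaled fragments were not used.

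Estimated counts were summed per symbol and rounded to whole numbers. The 197 genes of loci marked as failed estimates (HIDATA) were left out; none of the genes discussed is among them. Genes were filtered with filterByExpr (minimum count 10, minimum total 15), which left 14653, scaled by TMM and compared by quasi-likelihood in edgeR 4.0.16 under R 4.3.3, two-sided and without covariates, with Benjamini-Hochberg adjustment over all genes and a threshold of 0.05. CPM are TMM-normalised, and standard errors derive from the F statistic. The test was tested on simulated data. With 39022281 to 46985605 fragments per library, counting adds little error to these genes.

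The 8 genes and the gene lists were chosen with earlier results of these data known. All 8 genes are named, and of each list any called genes or the 2 with the smallest p, the most similar genes, and annotated copies. Genes beyond that rule (Cdca7, Lig1, Parp1, Gadd45a, Gadd45b, Gadd45g, Nsd1, Uhrf2, Usp7, Dppa3, Dnmt3l, Cxxc4, Cxxc5, Smug1, Mbd4, Glt8d2, Cd4, Cd8a, Cd8b1 and the other markers) were named after their values were seen. The alternatives were DESeq2 (1.42.0), limma (3.58.1) on log2(FPKM + 0.1), log2(FPKM + 0.5) and log2(FPKM + 1) (mean FPKM of 1 or more), fitting every gene unfiltered, median-of-ratios scaling, a robust dispersion prior, the replicate number as a block, a Y-linked covariate, the 4 libraries low in Y-linked RNA alone, and dropping single libraries. Coordinates are those of GENCODE M21 on GRCm38; all 8 gene IDs and 62 transcripts matched. Promoter windows are from RefSeq (GRCm38.p6), with 13 windows for the 8 genes. Copies were sought with blastn at 95% identity over at least 200 bases.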

Additional observations from a re-analysis of the deposited data

How the results depend on the processing

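Over the 16 alternatives, Dnmt1, Dnmt3a, Tet1, Tet2, Tet3 and Tdg kept their direction, and the last 5 stayed uncalled. Genes called over the whole table numbered 256 with a Y-linked covariate, 493 with DESeq2, 260 without the libraries with Y-linked RNA, 127 with no filter, 20 with the robust prior, 14 with the replicate number as a block and 4 with limma on log2(FPKM + 0.1), against 2 in the main test, and 1 to 498 when each library was left out. Of the 8 genes, 1 was called (Dnmt1) with DESeq2 (log2 fold change -0.24), the covariate (-0.24) and without both libraries with Y-linked RNA (-0.28), and 0 to 1 when each library was left out, with values from -0.31 to -0.20. Partner, reader and donor genes called numbered 9, 5, 3, 2, 1 and 1 with DESeq2, the covariate, without those 2 libraries, with no filter, the robust prior and the block, and 0 to 9 with a library left out. S phase genes called numbered 15, 11, 9, 5 and 2 in the first 5 of these settings, and 0 to 15 with a library left out. The highest counts with a library left out all came without wild-type replicate 1.

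The sign of Uhrf1, near 0, turned with the block (-0.000939), the covariate (-0.000393), without both libraries with Y-linked RNA (-0.036) and with single libraries left out (-0.027 to 0.040). Dnmt3b turned with limma on log2(FPKM + 0.1), log2(FPKM + 0.5) and log2(FPKM + 1), at 0.0258, 0.0254 and 0.0249. The cause was not tested. No label says whether the replicate numbers pair the samples. Same-numbered libraries had correlations of deviations of 0.24, 0.19 and 0.01. For wild-type replicates 1 and 2 the same-numbered library was the best match, while wild-type replicate 3 correlated best with transgenic replicate 2, at 0.23. With 3 libraries per group, these values cannot settle whether the samples are paired. The block changed no call among the 8 genes. Groups of 3 limit what can be called, and the split among transcripts has no error per library.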

Other observations

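Fragments were assigned to short transcripts annotated as retaining introns for Dnmt3b and Uhrf1. In Dnmt3b they were few, 34 to 73 per library for Dnmt3b-211 and 18 to 34 for Dnmt3b-212. Whether they come from such transcripts or from unspliced RNA in the total RNA was not tested. For Dnmt3b, Dnmt3b-211 and Dnmt3b-212 together took 14.4, 12.8 and 10.5% of the gene's FPKM in wild-type replicates 1, 2 and 3 and 16.5 to 19.0% in the transgenic libraries, without overlap. In fragments they made up a mean of 1.66% of the gene in wild type and 2.41% in transgenic libraries. For Uhrf1, the retained-intron transcript Uhrf1-205 took 4.36 ± 1.13% of FPKM in wild type and 5.57 ± 1.36% in transgenic libraries, and Uhrf1-206 took 2.70 ± 0.10% of FPKM in wild type and 2.80 ± 0.57% in transgenic libraries (SD, n = 3 each). The 3-exon coding fragment Tet1-205 stood at 0.92 ± 0.30 FPKM in wild type and 1.65 ± 0.11 FPKM in transgenic libraries (SD, n = 3 each), also without overlap. These transcripts were picked after their values were seen, and no test was made of them.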
